A study of Caenorhabditis elegans with 2 samples.

Results

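The 8 genes described here carry out the response to unfolded protein in the endoplasmic reticulum (ER) of Caenorhabditis elegans. They are 3 sensors (ire-1, pek-1 and atf-6), 2 transcription factors (xbp-1 and atf-4) and 3 chaperones (hsp-3, hsp-4 and crt-1), taken by name from 19973 protein-coding genes on the nuclear chromosomes. For each gene, peaks of the tagged bZIP factor ZIP-8 were kept where the summit lay from 5 kb upstream of the annotated gene start to the gene end. The data are ChIP-seq peak lists from 2 biological replicates that form 1 group, whole embryos of mixed stages and mixed sex of strain OP327, whose genotype is unc-119(ed3) III with the integrated transgene wgIs327 for eGFP-tagged zip-8. The labels do not say whether the replicates were separate cultures, so their spread may be partly technical. No untagged strain was analysed here, the labels name no ER stress treatment, and tagged ZIP-8 is the only factor whose binding these lists describe.

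Unfolded protein in the ER is sensed by transmembrane proteins. IRE-1 is a kinase and nuclease that splices xbp-1 mRNA, PEK-1 is the worm homolog of the kinase PERK and phosphorylates the translation initiation factor eIF2 alpha, and ATF-6 is a bZIP factor held in the ER membrane. XBP-1 and ATF-4 are the bZIP factors of the IRE-1 and PEK-1 arms, and their targets include chaperones of the ER lumen. In mammals, XBP1 and ATF6 act through the unfolded protein response element (UPRE) and the ER stress elements (ERSE and ERSE-II), while ATF4 acts with C/EBP factors at a composite site.

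The sequences below hold the sites that are set against the summits in the next paragraphs. Each reads from 5 prime to 3 prime on the strand of its gene, is on ce11, and has full bZIP sites, UPRE cores and ERSE-II matches in capitals. The sites searched, on both strands, were 5 full bZIP patterns of 8 bases (the CRE, as TGACGTCA or TGACGTAA, the C/EBP palindrome TTGCGCAA, the PAR palindrome TTACGTAA, the C/EBP-ATF composite TGATGCAA and the CRE-C/EBP hybrid TGACGCAA), the UPRE core (TGACGTGG or TGACGTGT), ERSE (CCAAT, 9 bases, CCACG) and ERSE-II (ATTGG, 1 base, CCACG). The stretches at pek-1, hsp-3 and crt-1 lie around the optimal summits, that of xbp-1 lies just upstream of its gene start and short of its summits, that of atf-4 is the 30 bases of 5 prime UTR around a CRE, and that of hsp-4 holds its UPRE core and no summit of any list.
pek-1, chrX:11415349-11415499, minus strand: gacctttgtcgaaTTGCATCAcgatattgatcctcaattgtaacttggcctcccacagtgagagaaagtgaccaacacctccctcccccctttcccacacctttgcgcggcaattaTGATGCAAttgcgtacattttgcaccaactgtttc
hsp-3, chrX:6092216-6092341, minus strand: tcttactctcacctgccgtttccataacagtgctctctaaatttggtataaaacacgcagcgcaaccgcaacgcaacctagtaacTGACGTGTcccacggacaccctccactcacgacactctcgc
crt-1, chrV:6100768-6100893, minus strand: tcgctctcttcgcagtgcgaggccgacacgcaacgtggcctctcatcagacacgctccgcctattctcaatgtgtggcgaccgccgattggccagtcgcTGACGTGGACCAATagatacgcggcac
xbp-1, chrIII:4193699-4193808, plus strand: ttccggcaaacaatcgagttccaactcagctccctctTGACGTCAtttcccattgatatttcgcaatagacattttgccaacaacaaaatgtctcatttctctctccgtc
atf-4, chrX:14810695-14810724, minus strand: gtctcaataccaatcTTACGTCAtcgcgaa
hsp-4, chrII:7352676-7352775, minus strand: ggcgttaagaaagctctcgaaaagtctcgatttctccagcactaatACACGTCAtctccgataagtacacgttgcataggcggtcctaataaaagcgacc

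ZIP-8 peaks of the optimal list lay at the promoters of 4 of the 8 genes, 1 sensor (pek-1), 1 factor (xbp-1) and 2 chaperones (hsp-3 and crt-1), with 1 peak each. The optimal list is the authors' set past a threshold on the irreproducible discovery rate (IDR), a measure built on the agreement of peak ranks between replicates. A place in it does not mean that a peak was listed in each replicate. Of its 2610 peaks on nuclear chromosomes, 76.3% had a summit of both replicates inside the interval. The optimal list held 2634 peaks with signals from 21.4 to 1224, where the signal is the authors' enrichment value for a peak. Over all protein-coding genes, 17.6% had an optimal summit in the same kind of window. The same 4 genes had an optimal summit in the narrower promoter window, which spans 1000 bp before and 200 bp after a transcript start, against 4.35% of all genes. The median window was 7815.5 bp for the 8 genes and 7027 bp for all genes, and the list of 8 was chosen with earlier results of these data known, so no test of these counts was made. All 4 summits had the gene's own transcript start as the nearest one, at most 537 bp away. Without replicate 2, taking the 2634 strongest peaks of replicate 1, the count of 4 became 2 (pek-1 and hsp-3).

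The peaks were of middle to low rank within the optimal list. The peak at pek-1 had a signal of 37.8 and rank 1350, that at hsp-3 33.6 and rank 1571, that at crt-1 26.8 and rank 2041, and that at xbp-1 23.4 and rank 2377. The median signal of the optimal list was 38.5, above all 4. None of the 4 was among the 50% of optimal peaks with the higher signal.

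The pooled list holds 30000 entries made from both replicates together, down to a signal of 2.44, and the optimal list is identical to its 2634 strongest. Its label describes it as peaks and background for input to IDR. Its entries below the optimal threshold are called peaks here, but any of them may be background. The pooled list placed 29 summits in the windows of the 8 genes, and 15 of these were nearer to a transcript start of another gene. Every member had a pooled summit, as did 81.8% of all genes. The list of replicate 1, with 22803 peaks, had a summit at all 8 (78.9% of all genes), and that of replicate 2, with 12222 peaks, at all but hsp-4 (58.6% of all genes). Summits in both replicate lists were found for 7 members and for 50.7% of all genes. With shares this high a summit in these lists says little by itself, and the signals and ranks are given for each gene.

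**Figure D1:**
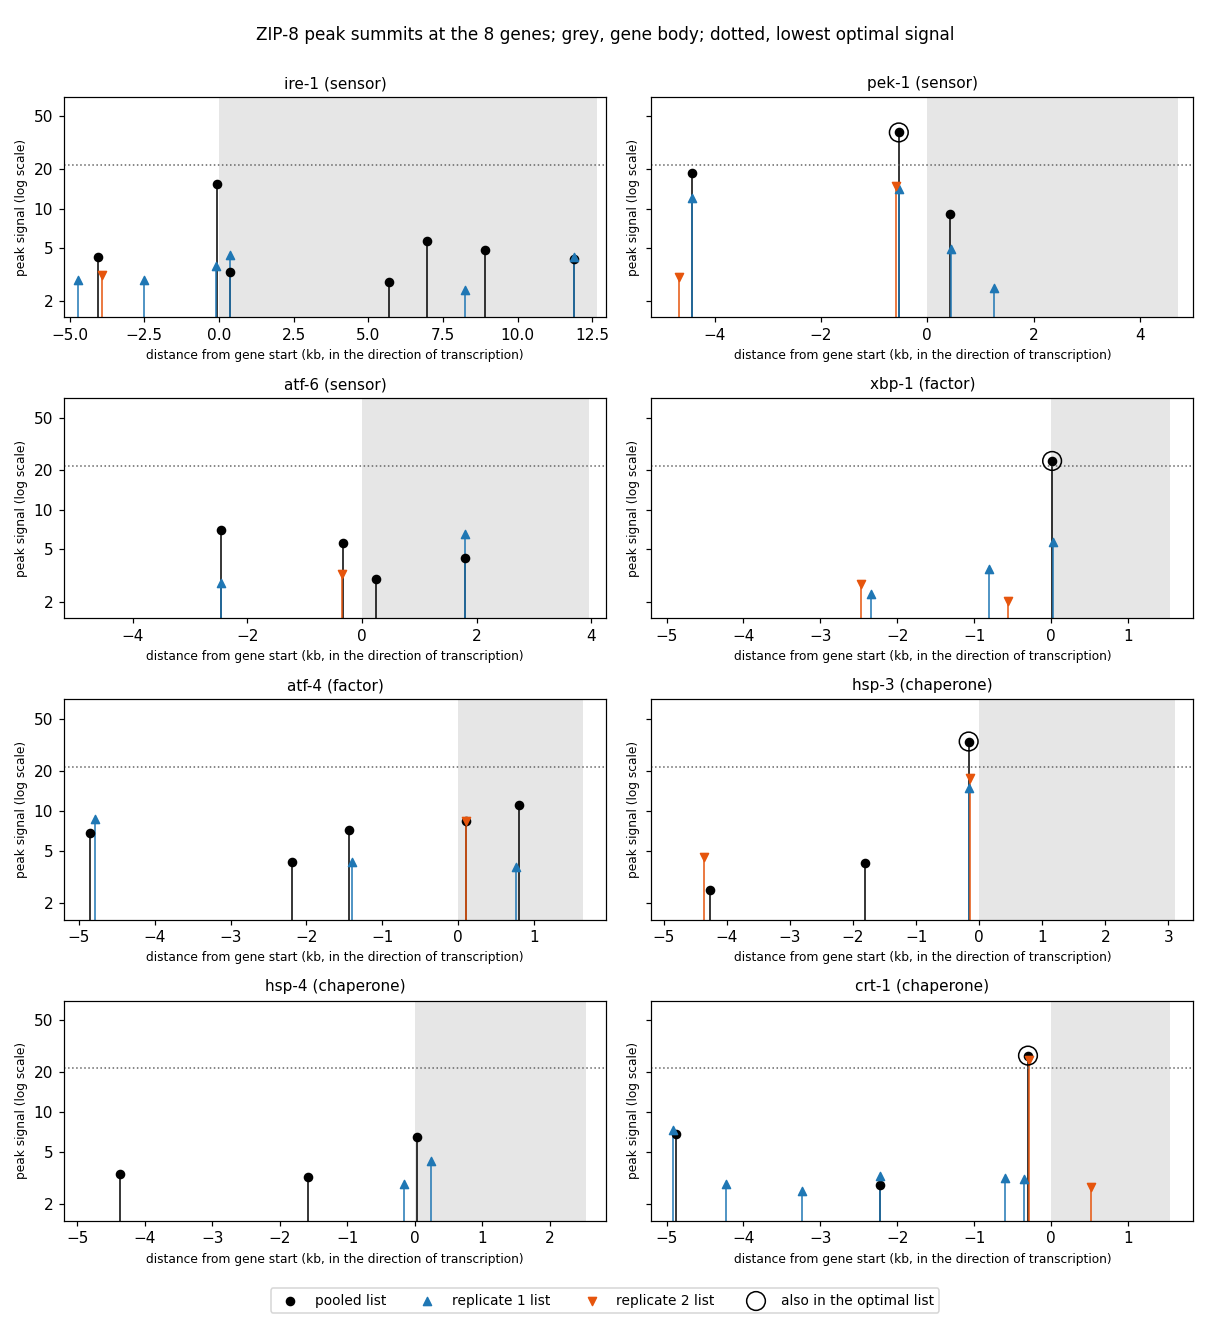
Signal of each peak (vertical axis, log scale) against the distance of its summit from the gene start in kb (horizontal axis, negative upstream) for the 8 genes, in the pooled list and the list of each replicate, with circles round peaks also in the optimal list. The circled peaks at pek-1, xbp-1, hsp-3 and crt-1 lie next to the gene start, and the other 4 genes have no pooled peak above the dotted line at 21.4, the lowest optimal signal. Signals of different lists share an axis for display only, since their scales are not known to be the same.

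The order of the 8 genes by their strongest pooled peak was pek-1, hsp-3, crt-1, xbp-1, ire-1, atf-4, atf-6 and hsp-4, with signals of 37.8, 33.6, 26.8, 23.4, 15.3, 11.1, 7.02 and 6.51. The lists give no error for a signal, so it is not known which neighbours in this order differ. Among the 16340 genes with a pooled summit, the median of the strongest signal was 8.43, with quartiles at 5.21 and 18.0, and the median of the 8 members was 19.4. A stronger pooled peak was present at 9.52% of all protein-coding genes for pek-1 and at 51.8% for hsp-4. Roles did not separate in this order, since a sensor and a chaperone stood at each end. The paralogs hsp-3 and hsp-4, which both encode homologs of the ER chaperone BiP, stood apart, with 2194 and 10351 genes having a stronger pooled peak.

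**Figure D2:**
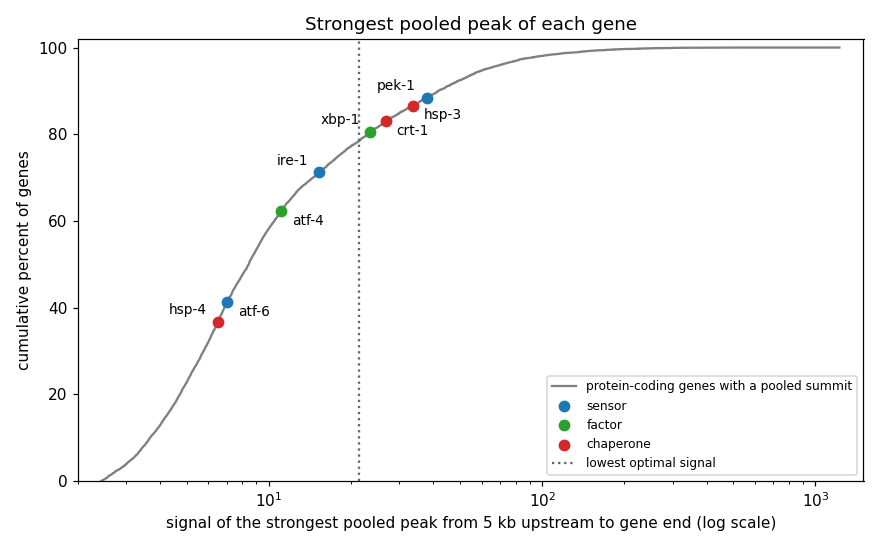
Cumulative percent of protein-coding genes (vertical axis) by the signal of the strongest pooled peak in the gene's window (horizontal axis, log scale), for the 16340 genes with such a peak, with the 8 members as points coloured by role. Members spread from 6.51 at hsp-4 to 37.8 at pek-1, and 4 lie right of the lowest optimal signal.

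Of the sensors, pek-1 had the highest signal. Its optimal summit lay in intergenic sequence 537 bp upstream of the gene start at chrX:11415424. Replicate 1 had a summit 11 bp from it with a signal of 14.2 (rank 2575), and replicate 2 one 61 bp from it with a signal of 14.9 (rank 796). Both replicate ranks thus lay within the first 2634 of their lists. The peak held 2 copies of the C/EBP-ATF composite site in opposite orientation, centred 44.5 bp and 58.5 bp from the summit on either side of it. The summit of replicate 2 lay 2.5 bp from the centre of the copy farther from the gene. A composite site lay within 50 bp of 1.84% of the 2610 optimal summits on nuclear chromosomes (95% exact Clopper-Pearson interval 1.36 to 2.43) and of 1.03% of the 27362 lower-ranked pooled summits. In the promoter stretch from 1000 bp before the gene start to 200 bp after it, it was found at 5.13% of all protein-coding genes, and among the members at pek-1 only.

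A further pair of pooled peaks at pek-1, both below the optimal threshold, each held the CRE in the form TGACGTAA close to the summit. The stronger, with a signal of 18.5 and rank 3033, lay 4435 bp upstream at chrX:11419322, in a coding exon of F46C3.6 and nearest to the start of F46C3.2, and its CRE was centred 9.5 bp from the summit. The weaker, with a signal of 9.17 and rank 6359, lay in an intron of pek-1, 423 bp inside the gene at chrX:11414464, with the CRE 11.5 bp away. Replicate 1 listed both, with signals of 12.04 and 4.96, and replicate 2 had no summit within the interval of either. The 61 bases around these summits are shown because they are the only CRE matches within 15 bp of a pooled summit at a sensor.
pek-1 upstream, chrX:11419292-11419352, minus strand: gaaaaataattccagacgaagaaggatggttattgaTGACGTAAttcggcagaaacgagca
pek-1 intron, chrX:11414434-11414494, minus strand: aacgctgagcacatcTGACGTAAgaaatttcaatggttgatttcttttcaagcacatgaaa

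At ire-1 the strongest pooled peak lay 81 bp upstream of the gene start, at chrII:8124991, with a signal of 15.3 and rank 3596, below the lowest optimal signal of 21.4. Replicate 1 had a summit 117 bp upstream with a signal of 3.66 (rank 12858), and replicate 2 had none there. The strongest replicate 1 peak of the window lay elsewhere, 351 bp inside the gene, with a signal of 4.49 (rank 9903). The only replicate 2 summit lay 3936 bp upstream with a signal of 3.12. No full bZIP site or ER stress element lay within 50 bp of the strongest pooled summit, nor of the other 6 pooled summits at ire-1, whose signals ran from 2.77 to 5.70. The gene is 12668 bp long and its window the widest of the 8, and 3 of those 6 summits were nearest to a start of unc-105, which lies within it. Another was nearest to lron-4 and another to ulp-4. At atf-6 the 4 pooled peaks had signals of 2.98 to 7.02, the strongest of them 2463 bp upstream and nearest to the start of F45E6.1, and none had a full bZIP site or ER stress element. The peak in its promoter, 334 bp upstream, had a signal of 5.62. Replicate 2 listed a summit 346 bp upstream with a signal of 3.24, and replicate 1 had its stronger peak in an intron, 1790 bp inside the gene, with a signal of 6.60. The strongest replicate peaks of atf-6 were thus at different places.

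Of the factors, xbp-1 had a single pooled peak, and it was also the optimal one. The summit at chrIII:4193821 lay in the 5 prime UTR, 12 bp inside the gene and on the start of its second annotated transcript. Replicate 1 had a summit 13 bp away with a signal of 5.75 (rank 7015), while the peaks of replicate 2 in the window lay 560 bp and 2473 bp upstream with signals of 2.03 and 2.73. The optimal peak of xbp-1 therefore had no replicate 2 summit inside its interval. Such peaks, with a summit of replicate 1 alone, made up 21.6% of the 2610 optimal peaks. The summit had no full bZIP site within 50 bp. The CRE palindrome TGACGTCA was present 69.5 bp upstream of the gene start, inside the peak interval and 81.5 bp from the summit.

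At atf-4 the peaks were below the optimal threshold, and the lists put the strongest peak at different places. The strongest pooled peak, with a signal of 11.1 and rank 4987, lay in an intron 801 bp inside the gene. The next, with a signal of 8.41 and rank 7149, lay 111 bp inside at chrX:14810699, in the 5 prime UTR of atf-4, where the annotation also has a short coding gene, WBGene00303075. The CRE TTACGTCA on the strand of atf-4 was centred 6.5 bp from that summit, the nearest full site at any summit of the pooled list in the 8 windows. Replicate 2 had its only summit of the window there, at chrX:14810710, with a signal of 8.32 and rank 1932, and 4.5 bp from the centre of the CRE. Replicate 1 listed no summit in that stretch, and its 3 peaks had signals of 3.76 to 8.68, the last of them 4790 bp upstream and nearest to the start of epn-1.

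Of the chaperones, hsp-3 had a peak within the first 2634 of both replicate lists. Its optimal summit lay in intergenic sequence 167 bp upstream of the gene start at chrX:6092291. Replicate 1 had a summit at the same base with a signal of 14.98 (rank 2447), and replicate 2 one 21 bp away with a signal of 17.8 (rank 620). Of the optimal peaks with a replicate 1 summit, 16.5% had a weaker replicate 1 rank, and of those with a replicate 2 summit, 28.1% had a stronger replicate 2 rank. A UPRE core, TGACGTGT on the strand of the gene, was centred 38.5 bp from the optimal summit and 17.5 bp from that of replicate 2, on the side of the gene, and no full bZIP site lay within 50 bp. A UPRE core lay within 50 bp of 2.76% of optimal summits (95% exact interval 2.16 to 3.46), 0.588% of lower-ranked pooled summits and 0.881% of windows of the same width centred 250 bp from an optimal summit.

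At crt-1, which encodes the calcium-binding chaperone calreticulin, the optimal summit lay 301 bp upstream of the gene start at chrV:6100843. In replicate 2 the peak had a signal of 24.8 and rank 347 of 12222, 15 bp from the optimal summit. In replicate 1 the summit inside the optimal interval was 56 bp away with a signal of 3.12 and rank 15361. Of the 2555 optimal peaks with a replicate 1 summit, 6 had a weaker replicate 1 rank (0.235%), and another 55 optimal peaks had no replicate 1 summit. A UPRE core, TGACGTGG on the strand of the gene, was centred 52.5 bp from the optimal summit and 37.5 bp from that of replicate 2. An ERSE-II overlapped it by 5 bases and was centred 57 bp from the optimal summit, so the stretch of 14 capitals in the crt-1 sequence carries both. ERSE-II was rare in the promoter stretches from 1000 bp before to 200 bp after a gene start, with a match at 8 of 19973 protein-coding genes. Among these 8, crt-1 was the only member. Neither ERSE nor ERSE-II was found within 50 bp of any of the 2610 optimal summits, a count of 0 that allows a share of up to 0.115% when taken as 3 counts of the total, and of up to 0.141% by the upper bound of the 95% exact interval.

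At hsp-4, the BiP gene whose induction is widely used as a readout of ER stress in worms, no list had a strong peak. The strongest pooled peak, with a signal of 6.51 and rank 10264, lay in the 5 prime UTR, 37 bp inside the gene at chrII:7352608. Replicate 1 had summits 243 bp inside and 158 bp upstream, with signals of 4.25 and 2.84, and replicate 2 had none in the window. The promoter held a UPRE core, TGACGTGT on the strand opposite to the gene, 80.5 bp upstream of the gene start and 117.5 bp from the pooled summit. The cores of hsp-3 and hsp-4 have the same 8 bases and lie in opposite orientation to their genes.

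Over the 8 promoter stretches, a UPRE core was present at hsp-3, hsp-4 and crt-1, all 3 chaperones, and at 5.65% of all protein-coding genes. A full bZIP site was present at pek-1, xbp-1 and atf-4 and at 17.5% of all genes. No member promoter held both kinds. No match was found at ire-1 or atf-6, which says only that these letters are not in that stretch.

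**Figure D3:**
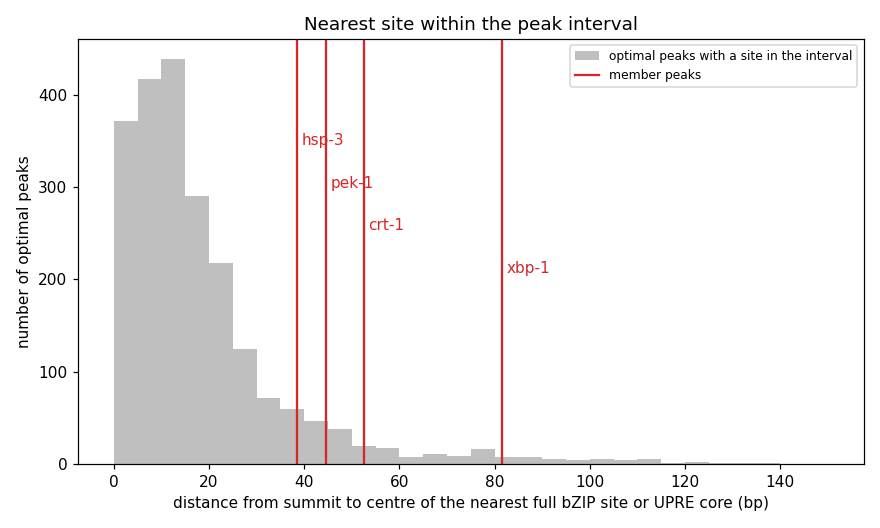
Number of optimal peaks (vertical axis) by the distance in bp from the summit to the centre of the nearest full bZIP site or UPRE core inside the peak (horizontal axis), over the 2203 optimal peaks with such a site. Lines mark the 4 member peaks, at 38.5 bp for hsp-3, 44.5 bp for pek-1, 52.5 bp for crt-1 and 81.5 bp for xbp-1, to the right of most of the distribution.

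Measured from the optimal summit, the sites at the 4 optimal member peaks lay farther away than at most optimal peaks that held one. A full bZIP site or UPRE core was found inside 2203 of the 2610 optimal peaks, at a median of 13.5 bp from the summit (quartiles 7.5 and 22.5). The nearest such site was closer at 89.6% of these peaks than at hsp-3, at 92.1% than at pek-1, at 94.5% than at crt-1 and at 97.9% than at xbp-1. From the replicate 1 summits the nearest site lay 38.5, 33.5, 108.5 and 94.5 bp away, in the same order. From the replicate 2 summits it lay 17.5 bp away at hsp-3, 2.5 bp at pek-1 and 37.5 bp at crt-1. Within 50 bp of the summit, 1 of the 4 had a full bZIP site and 1 had an ER stress element, whereas 78.7% of all optimal summits had a full bZIP site (95% exact interval 77.1 to 80.3). Among the 1121 optimal summits within 1000 bp of a transcript start that share was 78.3%. It was 8.87% at lower-ranked pooled summits and 2.76% in windows of the same width centred 250 bp from an optimal summit. The bZIP patterns were defined in an earlier analysis of these data, so these shares are not an independent yardstick for the members. All 4 member peaks lay below the median signal of the optimal list, and optimal peaks of like signal were not counted apart. The 5 bases CCACG, the part of ERSE that ATF6 contacts in mammals, lay within 50 bp of 3 of the 4 summits (xbp-1, hsp-3 and crt-1) and of 10.2% of all optimal summits. These 5 bases are common, at 8.74% of lower-ranked pooled summits, 7.78% of the windows 250 bp away and 59.0% of promoter stretches. None of the 3 was part of an ERSE or ERSE-II, and the copy counted at crt-1 lay outside its ERSE-II. Intervals cover counting error only, and 4 peaks are too few to give the difference a firm size.

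**Figure D4:**
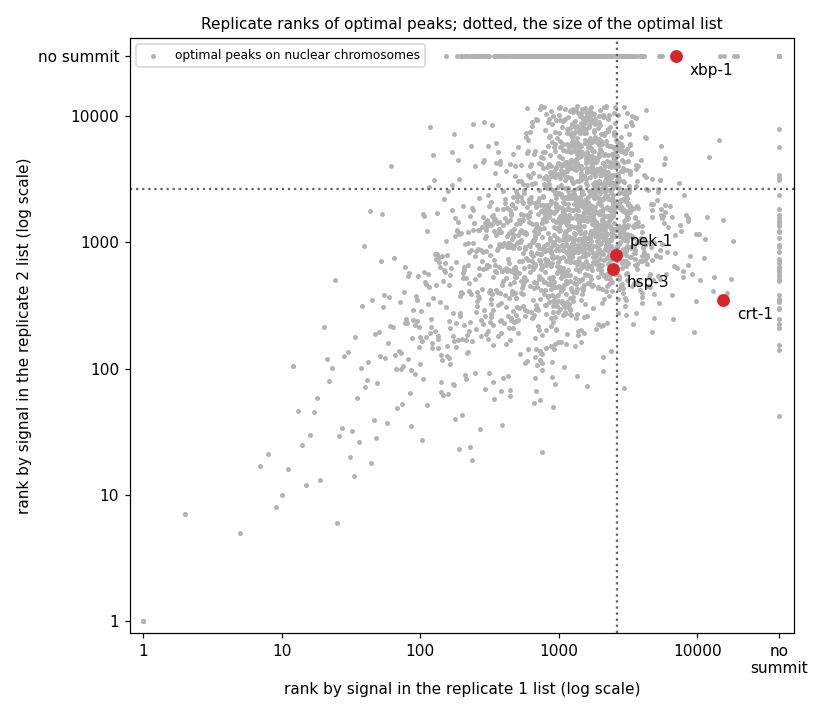
Rank by signal of each optimal peak in the list of replicate 1 (horizontal axis) and of replicate 2 (vertical axis), both on log scales with rank 1 the strongest, over 2610 optimal peaks on nuclear chromosomes, with peaks lacking a summit of a replicate drawn at the edge. The peaks of pek-1 and hsp-3 lie inside both dotted lines at 2634, crt-1 only below the horizontal one, and xbp-1 outside both.

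The replicates carried these 4 peaks unequally. The peaks of pek-1 and hsp-3 ranked within the first 2634 of each replicate list, as did 47.4% of optimal peaks. That of crt-1 did so in replicate 2 only, as did 10.3%, and that of xbp-1 in neither, as did 5.17%. When the 2634 strongest peaks of replicate 1 were used in place of the optimal list, which leaves out replicate 2, only pek-1 and hsp-3 had a summit, against 17.8% of all genes. With the 2634 strongest of replicate 2, which leaves out replicate 1, pek-1, atf-4, hsp-3 and crt-1 had one, against 17.5% of all genes. The lists differ in length and depth is unknown, so ranks describe a peak within its list and no change between replicates is read from them.

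Further genes of ER protein folding and quality control were taken from 6 lists of 55 names, of which 52 matched a protein-coding gene. Of these 52, 6 had an optimal summit in the window, or 11.5%, against 17.6% of all protein-coding genes. Their median strongest pooled signal was 9.78, against 8.43 over all genes with a pooled summit. Among the folding chaperones 2 of 9 had one, uggt-1 and uggt-2, which encode homologs of the glucosyltransferase that checks glycoprotein folding. The summit of uggt-1 lay 238 bp upstream of its start with a signal of 21.6, near the bottom of the optimal list, and had no full site. The window of uggt-2 held the strongest peak of all these genes, with a signal of 177 and rank 65 and with a CRE, 1854 bp upstream but nearest to the start of F26H9.5. A second summit at uggt-2, of signal 30.5 and also with a CRE, lay in a coding exon and nearest to the start of hsp-70. Of 5 oxidative folding genes, ero-1, the oxidase that recharges disulfide isomerases, had a summit in an intron with a signal of 21.9 and no full site. None of the 7 matched genes of ER translocation and signal peptide cleavage had one.

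Of 14 genes of ER-associated degradation, cdc-48.2, an ATPase that extracts proteins from the ER membrane, had an optimal summit 764 bp upstream with a signal of 36.5 and the C/EBP palindrome. Of the 3 partners of the sensors, eif-2alpha, whose product PEK-1 phosphorylates, had a summit 1767 bp upstream with a signal of 36.3 and the C/EBP palindrome, but nearest to the start of Y37E3.8. Of 14 matched abu genes, a family known to rise when the unfolded protein response is blocked, abu-11 had a summit 628 bp upstream with a signal of 77.4 and the PAR palindrome. Of the 7 optimal summits at these genes, 5 had a full bZIP site within 50 bp, against 78.7% of all optimal summits, and the count is too small to set them apart from that share.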

How the data were processed

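ChIP-seq of eGFP-tagged ZIP-8 was analysed in 2 replicates of 1 group. Per the read-me files deposited with the data, each replicate list was made from its alignments and a control, the pooled list from both replicates, and the optimal list from these lists by IDR. The sources used here name no aligner, peak caller, filter or IDR threshold. The signal deposited by the authors for each peak is an enrichment value of unstated scale. The deposited −log10 q-value was constant over the optimal list and was not used for ranking. Read counts are not in the lists, so depth is unknown. Lists on ce10, alignments and signal tracks were not used here.

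Summits on ce11 were compared with Ensembl release 115 (WBcel235) and the RefSeq genome sequence of that assembly, in which 11 of 11 annotated start codons of the members read ATG. Coordinates are 1-based. A replicate summit was matched to an optimal peak when it lay inside the peak interval. Motifs were counted when they lay wholly within 50 bp of a summit. Python 3.11.15, pandas 2.3.3 and scipy 1.17.1 were used, and the procedures were tested on simulated data. The members and lists were chosen, and the bZIP patterns defined, with earlier results of these data known, so no test was made. The text names all members, the gene with the nearest start to a summit described singly, and listed genes with an optimal summit, and genes annotated at a named summit were added after seeing it. Alternatives for the window, the threshold, the replicates and the motif distance were tried.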

Additional observations from a re-analysis of the deposited data

How the results depend on the processing

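The count of 4 members with an optimal summit, with 1 summit each, was 4 under all 5 other window rules tried: promoters, 2 kb upstream, 1 kb beyond the gene end, overlap of at least 1 bp, and nearest transcript start. The share of all protein-coding genes under these rules was 4.35%, 11.6%, 19.7%, 18.1% and 9.71%. With the 50% of optimal peaks of higher signal, 0 members and 0 summits remained, against 9.30% of all genes. With 1 replicate left out, both counts ran from 2 to 4, and the share of all genes from 17.5% to 17.8%. The 7 members with a summit in both replicate lists became 2 with the strongest 2634 peaks of each list, 4 in promoters and 6 with 2 kb upstream. Of the 4 optimal summits, those with a full bZIP site numbered 0 within 25 bp, 2 within 100 bp and 2 over the whole interval, and those with an ER stress element likewise 0, 2 and 2. With 1 replicate left out, each of these counts ran from 1 to 2, over other summits: 1 of 2 without replicate 2 (pek-1 and hsp-3), and 2 of 4 without replicate 1, where atf-4 stood in place of xbp-1. No paired analysis was possible because the samples form 1 group. Depth is unknown, so a missing weak peak cannot be read as missing binding.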

Other observations

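The windows of the 8 genes also took in peaks in or near neighbouring genes. At crt-1 a pooled peak with a signal of 6.82 lay 4875 bp upstream and 190 bp from the start of atf-8, itself a gene for a bZIP factor, and replicate 1 listed it with a signal of 7.34, its strongest in that window. At hsp-4 the pooled peaks 1586 bp and 4365 bp upstream had signals of 3.21 and 3.40. The first lay in a coding exon of haf-2, though the nearest transcript start was that of hsp-4. The second lay 584 bp from the start of haf-2. At atf-4 the pooled peak 1440 bp upstream, with a signal of 7.19, was 111 bp from the start of T04C10.3. None of these 4 pooled summits had a full bZIP site or an ER stress element within 50 bp.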
